A study of Mus musculus with 6 samples.

Results

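Transcripts of 10 secreted antimicrobial genes were described in epithelial cells of the mouse colon: Ang4, Retnlb, Mptx1, Itln1, Reg4, Reg3b, Reg3g, Lypd8, Saa1 and Lyz1. They were chosen by name, as antimicrobial lectins, an antimicrobial ribonuclease and other secreted or shed proteins that act on gut bacteria, and each matched 1 of the 52550 Ensembl gene identifiers. The cells came from male Apc Min/+ mice of 5 to 6 weeks, which carry a truncating mutation in 1 copy of the tumour suppressor Apc and develop intestinal adenomas, so both groups share this allele and there was no group with intact Apc. Mice of the first group received atorvastatin, an inhibitor of cholesterol synthesis, at 20 mg/kg by gavage on alternate days, and mice of the other group received the vehicle, 2% Tween 80. Each group had 3 libraries, numbered as replicates. The labels do not say whether a library stands for 1 animal, so the spread between libraries may be partly technical, and p-values measure that spread. They give neither the strain background nor the length of treatment, and do not say whether adenoma was kept apart from normal mucosa.

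The colon keeps bacteria away from its surface with a mucus layer and with proteins that kill, bind or immobilise microbes. Goblet cells release ANG4, a ribonuclease of the angiogenin family with bactericidal activity, RELM-beta, the product of Retnlb, which acts on Gram-negative bacteria, and intelectin-1, a lectin for microbial glycans. REG3 lectins act at the mucosal surface, where REG3G binds peptidoglycan of Gram-positive bacteria. LYPD8, made by surface colonocytes, is a glycosylated protein that is shed into the mucus and binds the flagella of Gram-negative bacteria. Several of these genes respond to microbes and to cytokines such as interleukin 22, interleukin 4 and interleukin 13.

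The values were FPKM, fragments scaled to gene length and to the library's mapped fragments, with totals of 407857 to 430832 per library and 11456 to 11655 genes at 1 FPKM or more. Read totals are not given in the sources used here. In genes with 1 annotated transcript, low values gathered at whole multiples of a step that implied about 36980000 to 37200000 fragments in the atorvastatin libraries and 36570000, 36630000 and 41910000 in control replicates 1, 2 and 3. Only 28.8% to 30.6% of such values lay within 0.05 of a whole multiple, where the tolerance alone gives 10%, so whole reads could not be recovered for most genes. The epithelial part of the label was borne out by the keratin gene Krt8, at 2625 to 2747 FPKM with atorvastatin and 2792 to 2871 FPKM in control. Krt8 does not speak to the part of the gut. Summed, 8 epithelial markers had 5335 to 5520 FPKM with atorvastatin and 5602 to 5743.5 FPKM in control. Of 9 small intestine enterocyte markers, Lct, Sis, Apoa4 and Apoa1 were below 1 FPKM in every library. Fabp2 had 193 to 219.5 FPKM with atorvastatin and 164 to 223 FPKM in control, and Alpi, Fabp6, Slc10a2 and Rbp2 had 3.63 to 11.1 FPKM with atorvastatin and 4.18 to 9.92 FPKM in control. Of 10 fibroblast and muscle markers 9 were below 1 FPKM in every library, while some markers of immune cells were above it, as given with the marker lists.

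The 10 genes spanned a wide range of FPKM, a level per gene length. Lypd8 was the most abundant at a mean of 4273 FPKM over the 6 libraries, followed by Mptx1 at 1911 FPKM and Reg4 at 233 FPKM. Ang4 at 74.4 FPKM, Saa1 at 49.5 FPKM and Retnlb at 48.8 FPKM came next, and their library values overlapped. Reg3b at 13.4 FPKM was the higher of the REG3 pair, above Reg3g at 3.50 FPKM, with no overlap of library values. Itln1 at 1.71 FPKM and Lyz1 at 1.06 FPKM were the lowest, and their values overlapped. Together the 10 genes held 1.52% to 1.63% of each library's FPKM with atorvastatin and 1.40% to 1.68% in control.

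Positions of the 10 genes are given on GRCm38 with the spans of GENCODE M21. Reg3b (ENSMUSG00000071356, chr6:78370657-78373466, plus strand) and Reg3g (ENSMUSG00000030017, chr6:78466269-78468872, minus strand) are near neighbours. Mptx1 (ENSMUSG00000026531, chr1:174330518-174332873, plus) and Itln1 (ENSMUSG00000038209, chr1:171518122-171535294, minus) share a chromosome. Ang4 is ENSMUSG00000060615 at chr14:51763878-51773590 (minus), Retnlb is ENSMUSG00000022650 at chr16:48816856-48818892 (plus) and Reg4 is ENSMUSG00000027876 at chr3:98222156-98236748 (plus). Lypd8 is ENSMUSG00000013643 at chr11:58379043-58390728 (plus), Saa1 is ENSMUSG00000074115 at chr7:46740497-46742980 (minus) and Lyz1 is ENSMUSG00000069515 at chr10:117287797-117292868 (minus).

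Among genes of goblet cell products, Ang4 varied most. It had 101, 62.7 and 172 FPKM in atorvastatin replicates 1, 2 and 3, against 10.3, 84.9 and 16.1 FPKM in control replicates 1, 2 and 3. All 3 atorvastatin libraries lay above control replicates 1 and 3, but control replicate 2 lay above atorvastatin replicate 2, so the groups overlapped. The means were 112 ± 55.3 FPKM with atorvastatin and 37.1 ± 41.5 FPKM in control (SD, n = 3 each), a ratio of 3.01. The step in low values would put the reads behind Ang4 at 1650 to 4529 fragments with atorvastatin and 266 to 2206 in control.

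Retnlb had 75.5, 33.3 and 109 FPKM in the atorvastatin libraries and 22.4, 35.3 and 16.8 FPKM in the control libraries. The groups overlapped only through control replicate 2, which was just above atorvastatin replicate 2. Its means were 72.7 ± 38.2 FPKM with atorvastatin and 24.8 ± 9.49 FPKM in control (SD, n = 3 each), a ratio of 2.93. Retnlb and Ang4 thus had the largest ratios of means of the 10 genes.

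Mptx1, which encodes mucosal pentraxin 1, a relative of C-reactive protein, had 2834, 1541 and 2905 FPKM with atorvastatin and 948, 2128 and 1112 FPKM in control. Again control replicate 2 lay among the atorvastatin libraries, above atorvastatin replicate 2. Itln1, the intelectin-1 gene, had 2.90, 0.926 and 2.98 FPKM with atorvastatin and 0.905, 1.86 and 0.710 FPKM in control. The same arrangement of libraries was seen at this much lower level. The means were 2426 ± 768 FPKM with atorvastatin and 1396 ± 639.6 FPKM in control for Mptx1, and 2.27 ± 1.16 FPKM with atorvastatin and 1.16 ± 0.617 FPKM in control for Itln1 (SD, n = 3 each).

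Reg4 encodes a C-type lectin and marks deep crypt secretory cells of the mouse colon. It had 245, 225 and 299 FPKM with atorvastatin and 180.5, 287 and 161 FPKM in control. Control replicate 2 lay among the atorvastatin libraries, below atorvastatin replicate 3 and above atorvastatin replicates 1 and 2, so the groups overlapped.

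**Figure D1:**
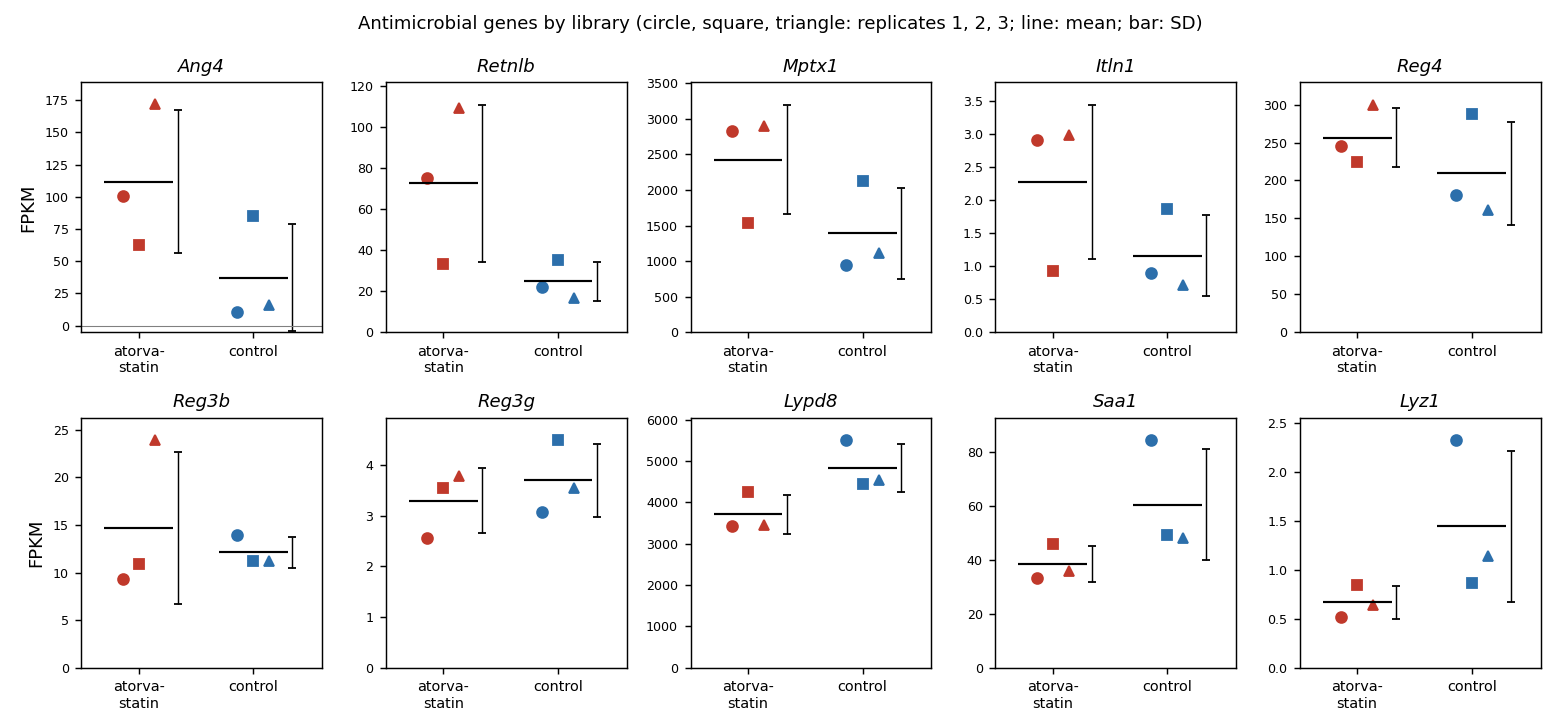
FPKM of the 10 antimicrobial genes in each library, atorvastatin at left and control at right of each panel; symbols mark replicates 1, 2 and 3, the line is the mean and the bar the SD (n = 3 each). In Ang4, Retnlb, Mptx1 and Itln1 control replicate 2 lies above atorvastatin replicate 2, while in Lypd8, Saa1 and Lyz1 every atorvastatin library lies below every control library.

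The REG3 lectins did not share this arrangement. Reg3b had 9.37, 10.9 and 23.9 FPKM with atorvastatin and 13.97, 11.2 and 11.2 FPKM in control, so atorvastatin replicate 3 stood alone above the other libraries. Without atorvastatin replicate 3 its fold change turned negative. Reg3g had 2.57, 3.54 and 3.78 FPKM with atorvastatin and 3.07, 4.49 and 3.56 FPKM in control, with overlapping groups.

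For Lypd8, Saa1 and Lyz1, all atorvastatin libraries lay below all control libraries, as they did in 6.05% of all tested genes. Lypd8 had 3436, 4264 and 3448 FPKM with atorvastatin and 5498, 4445 and 4549 FPKM in control. Saa1, a serum amyloid A gene whose product binds retinol and is made by epithelium in contact with bacteria, had 33.3, 45.9 and 36.1 FPKM with atorvastatin and 84.4, 49.1 and 48.2 FPKM in control. The means were 3716 ± 474 FPKM with atorvastatin and 4831 ± 580.3 FPKM in control for Lypd8, and 38.4 ± 6.61 FPKM with atorvastatin and 60.6 ± 20.6 FPKM in control for Saa1 (SD, n = 3 each). The groups were separated by a small gap in both genes, and control replicate 1 was the highest library.

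Lyz1 encodes the lysozyme of Paneth cells, a cell type of the small intestine. It had 0.516, 0.850 and 0.637 FPKM with atorvastatin and 2.32, 0.868 and 1.14 FPKM in control. At the step in low values these would be 24.1 to 39.9 fragments with atorvastatin and 40.2 to 107 in control. The groups did not overlap, but atorvastatin replicate 2 and control replicate 2 were nearly equal. Of 9 Paneth cell markers 6 were below 1 FPKM in every library, namely Defa17, Defa24, Defa30 and Mptx2, with Defa5 and Ang6 at 0. The other three were Nupr1, at 46.6 to 60.0 FPKM with atorvastatin and 42.2 to 53.5 FPKM in control, Pla2g2a, at 1.88 to 2.72 FPKM with atorvastatin and 1.61 to 2.68 FPKM in control, and Mmp7, at 0.702 to 1.11 FPKM with atorvastatin and 0.868 to 1.93 FPKM in control. Summed, the 9 markers had 49.9 to 63.1 FPKM with atorvastatin and 47.6 to 56.2 FPKM in control. In bulk RNA, fewer cells of a type and less RNA per cell cannot be told apart for any of these genes.

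Of the 10 genes, 9 reached 1 FPKM in at least 3 libraries and were tested, and Lyz1 was not. A gene can reach that level through the group in which it is high. In limma's test on log2(FPKM + 1), adjusted by Benjamini-Hochberg over 11644 genes, 0 of the 9 passed an adjusted p of 0.05, where 47 of all tested genes (0.404%) did. Before adjustment, 2 of the 9 genes had a p under 0.05 and were higher with atorvastatin, Ang4 and Retnlb, beside 7.75% of all tested genes. Another 2 had a p under 0.05 and were lower, Lypd8 and Saa1, beside 4.27% of all tested genes. Groups that did not overlap were found for 0 of 9 genes higher with atorvastatin and for 2 of 9 lower, beside 12% and 6.05% of all tested genes. The median log2 fold change of the 9 genes was 0.33, and that of all tested genes 0.02.

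Ang4 had a log2 fold change of 2.03 ± 0.78 (SE), with a 95% interval of 0.15 to 3.90 (limma adjusted p = 0.379). It was 2.90 without control replicate 2 and 1.44 without control replicate 1, and its adjusted p ran from 0.0844 to 0.645 over 16 alternative fits. For Retnlb the log2 fold change was 1.42 ± 0.46, with an interval of 0.31 to 2.53 (limma adjusted p = 0.302). Mptx1 had 0.83 ± 0.37, with an interval of -0.06 to 1.72 (limma adjusted p = 0.447). These intervals are not adjusted for the number of genes tested.

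Fold changes of the remaining tested genes were smaller on the log2(FPKM + 1) scale. For Itln1, a low gene, this depended on the 1 that was added. With 0.1 added in its place, Itln1 had 0.86 and Mptx1 0.83. Lypd8 had -0.38 ± 0.12, with an interval of -0.65 to -0.10, and the smallest adjusted p of the 9 genes (limma adjusted p = 0.266). With quantile normalization it was -0.22, and its adjusted p ran from 0.208 to 0.547 over the alternatives. Saa1 had -0.61 ± 0.23, with an interval of -1.17 to -0.04 (limma adjusted p = 0.379), and -0.35 without control replicate 1. The intervals of Itln1 (-0.23 to 1.35), Reg4 (-0.21 to 0.87), Reg3b (-0.62 to 0.93) and Reg3g (-0.47 to 0.21) included 0, with limma adjusted p-values of 0.577, 0.651, 0.903 and 0.792. Doublings and larger changes were thus within the interval for Itln1, but not for Reg4, Reg3b or Reg3g.

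**Figure D2:**
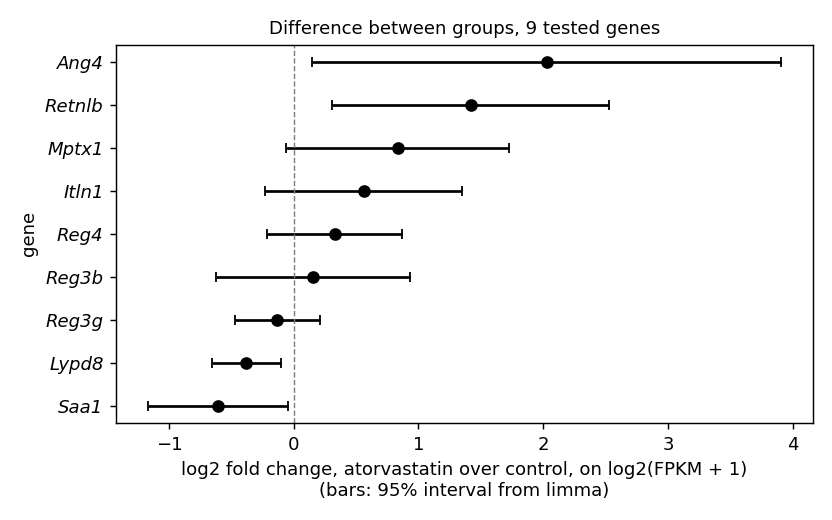
Log2 fold change, atorvastatin over control, of the 9 tested antimicrobial genes on the log2(FPKM + 1) scale, with unadjusted 95% intervals from limma. Intervals of Ang4 and Retnlb lie above 0, those of Lypd8 and Saa1 lie below 0, and no gene passed after adjustment over 11644 genes.

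The libraries kept a similar order across several of the genes. In Ang4, Retnlb, Mptx1 and Itln1 the first 4 places were atorvastatin replicate 3, atorvastatin replicate 1, control replicate 2 and atorvastatin replicate 2. That order of the first 4 was found in 58 of 11644 tested genes (0.498%), these 4 genes among them. The order was read from the values of these genes, so its share is no test of a shared arrangement. Atorvastatin replicate 3 was the highest library in 6 of the 10 genes, where it was highest in 11.1% of all tested genes. Control replicate 1 was the highest in Lypd8, Saa1 and Lyz1, and was highest in 20.8% of all tested genes. Atorvastatin replicate 1 was the lowest library in 5 genes, Reg3b, Reg3g, Lypd8, Saa1 and Lyz1, where it was lowest in 13.3% of all tested genes. Genes measured in the same libraries are not independent, so these counts are descriptions.

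**Figure D3:**
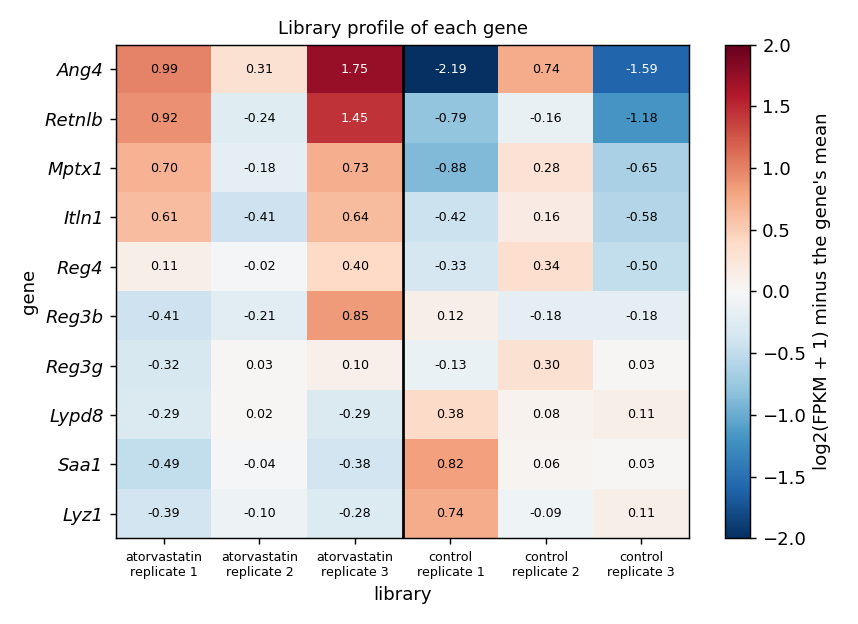
Log2(FPKM + 1) of each antimicrobial gene in each library minus the gene's mean over 6 libraries, atorvastatin libraries left of the line and control libraries right of it. The upper rows, Ang4 to Reg4, are above their mean in atorvastatin replicates 1 and 3 and higher in control replicate 2 than in the other control libraries, and the lower rows, Lypd8, Saa1 and Lyz1, are highest in control replicate 1.

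Promoter sequences are shown for genes that shared this order of libraries (Ang4, Mptx1, Itln1) and for the pair that was lower with atorvastatin in every library and was tested (Lypd8, Saa1). RefSeq's promoter table on GRCm38.p6 held 9 of the 10 genes, and Retnlb is named only. Each sequence gives the 250 bases before the annotated start, 5′ to 3′ on the gene's strand. They are chr14:51773591-51773840 (minus strand) for Ang4, chr1:174330268-174330517 (plus) for Mptx1, chr1:171535295-171535544 (minus) for Itln1, chr11:58378782-58379031 (plus) for the first of the annotated starts of Lypd8, and chr7:46742981-46743230 (minus) for Saa1. Capitals mark matches, on either strand, to TATAAA, the core of a TATA box, or its variant TATATA. They also mark TTCNNNGAA, a motif of STAT factors, TTTATG, of CDX factors, CAAAGTC, of the factor HNF4A, and AGATAA, of GATA factors, and matches could overlap.
Ang4: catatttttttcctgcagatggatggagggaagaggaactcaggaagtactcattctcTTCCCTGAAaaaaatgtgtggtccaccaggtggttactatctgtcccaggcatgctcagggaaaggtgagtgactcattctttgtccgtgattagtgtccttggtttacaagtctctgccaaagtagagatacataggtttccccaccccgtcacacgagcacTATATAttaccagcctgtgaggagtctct
Mptx1: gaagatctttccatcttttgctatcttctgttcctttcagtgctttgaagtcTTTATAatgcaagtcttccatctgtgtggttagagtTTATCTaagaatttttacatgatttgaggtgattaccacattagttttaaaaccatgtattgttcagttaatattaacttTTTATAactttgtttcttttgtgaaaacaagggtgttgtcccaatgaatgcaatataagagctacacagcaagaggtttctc
Itln1: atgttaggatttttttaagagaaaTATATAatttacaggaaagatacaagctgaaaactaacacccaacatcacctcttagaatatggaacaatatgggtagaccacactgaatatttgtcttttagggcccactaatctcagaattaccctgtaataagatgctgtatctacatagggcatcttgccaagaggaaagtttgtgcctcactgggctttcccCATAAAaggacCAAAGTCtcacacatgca
Lypd8: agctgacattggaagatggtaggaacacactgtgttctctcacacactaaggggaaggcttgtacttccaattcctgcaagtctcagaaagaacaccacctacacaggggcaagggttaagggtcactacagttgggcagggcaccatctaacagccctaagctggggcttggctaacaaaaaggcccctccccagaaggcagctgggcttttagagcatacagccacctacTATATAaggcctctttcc
Saa1: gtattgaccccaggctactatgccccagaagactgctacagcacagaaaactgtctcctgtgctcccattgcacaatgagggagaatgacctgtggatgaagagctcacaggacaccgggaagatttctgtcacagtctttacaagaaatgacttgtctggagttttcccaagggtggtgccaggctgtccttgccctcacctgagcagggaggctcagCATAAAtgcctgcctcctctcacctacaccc

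Positions count back from the start, so that the base before it is -1, and give a match's first base. TATATA lay at -29 in Ang4 and at -18 in Lypd8, and is present on either strand in 5.25% of 32851 promoters of this length. In Itln1 and Saa1 the reverse complement of TTTATG lay at -29 and -31, a match found in 10.8% of all promoters. Itln1 also held TATATA at -226 and CAAAGTC at -18, the second of these beside 3.84% of all promoters. Ang4 held TTCNNNGAA at -192, a match found in 7.02% of all promoters, and so did the promoter of Reg3b at -129. Reg3b and Reg3g each held TATAAA close to the start, at -29 and -27, beside 12.4% of all promoters. Mptx1 held TATAAA on the other strand at -198 and -82 and AGATAA on the other strand at -162, the second motif beside 9.99% of all promoters. The STAT6 motif with 4 spacer bases, present in 5.85% of all promoters, matched in none of the 9 genes. No set of these matches was shared by Ang4, Mptx1 and Itln1, and a match is a run of letters, not a measured site.

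The spread between libraries of 1 group was wide for these genes. Ang4 had an SD within groups of 1.21 on the log2(FPKM + 1) scale, and 0.0687% of tested genes had a larger one. Retnlb had 0.71 (0.344% larger) and Mptx1 0.57 (0.696% larger), where the median over all tested genes was 0.09. Itln1 had 0.50 and Reg3b 0.50, and Saa1 and Reg4 0.36 and 0.35. Lypd8 had 0.17 and Reg3g 0.22, with 15.4% and 9.09% of tested genes above them. Among abundant genes, averaging 10 FPKM or more, the share above Ang4 was 0.0977% and the share above Mptx1 0.66%. Within atorvastatin alone, the highest library was 2.74 times the lowest for Ang4 and 1.89 times for Mptx1. Within control the ratio was 8.29 for Ang4 and 2.25 for Mptx1.

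**Figure D4:**
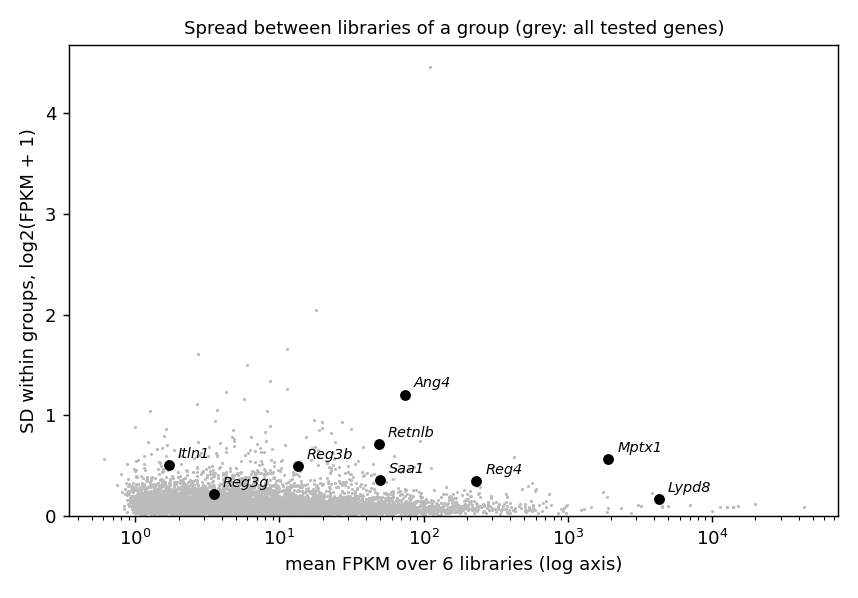
SD between libraries within groups, on log2(FPKM + 1), against mean FPKM (log axis) for 11644 tested genes in grey and the 9 tested antimicrobial genes in black. Ang4 at 1.21, Retnlb at 0.71 and Mptx1 at 0.57 lie above nearly all genes of like abundance, and Lypd8 at 0.17 lies lower.

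Other goblet cell genes were mixed. Of 12 goblet cell markers, all tested, 0 passed, beside 0.404% of all tested genes. Among them 8 had positive and 4 negative fold changes, where all tested genes had 6677 and 4967. The median was 0.09 on the log2 scale, beside 0.02 for all tested genes. The smallest p was that of Spink4, which had 194, 192 and 179 FPKM with atorvastatin and 175, 164 and 155 FPKM in control, without overlap (limma adjusted p = 0.309). Fcgbp, which encodes a mucus protein that binds IgG Fc, had 180.4, 226 and 216 FPKM with atorvastatin and 146, 198 and 150.4 FPKM in control (limma adjusted p = 0.393). Control replicate 2 was the highest control library for Fcgbp, as for Ang4 and Mptx1. Among markers with negative fold changes, Muc2, the main gel-forming mucin gene of the colon, had 569, 698 and 397 FPKM with atorvastatin and 645, 487 and 610.4 FPKM in control. Its lowest library, atorvastatin replicate 3, was the one with the most Ang4. Zg16, which encodes a lectin that aggregates Gram-positive bacteria, had 423, 678 and 462 FPKM with atorvastatin and 613, 455 and 575 FPKM in control. Spdef, a transcription factor gene of goblet cells, had 8.20, 11.99 and 8.55 FPKM with atorvastatin and 12.5, 7.21 and 12.4 FPKM in control. Clca1, which encodes a secreted mucus protease, did place control replicate 2 high, at 488, 383 and 567 FPKM with atorvastatin and 217, 615 and 276 FPKM in control. Summed over 12 goblet cell markers, the level was 2788 to 3380 FPKM with atorvastatin and 2771 to 2812 FPKM in control.

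**Figure D5:**
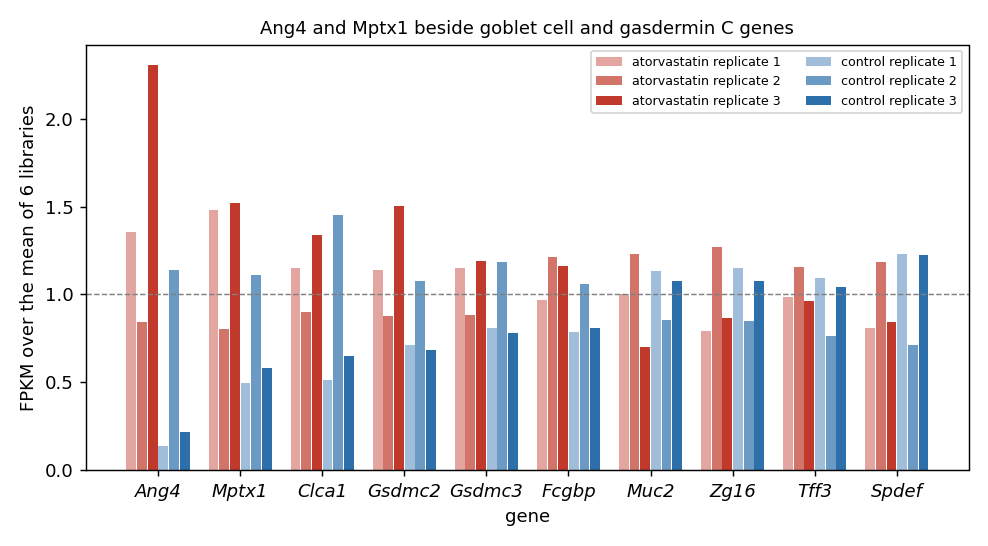
FPKM of Ang4 and Mptx1 in each library over the gene's mean of 6 libraries, beside gasdermin C genes (Gsdmc2, Gsdmc3) and goblet cell genes; red bars are atorvastatin and blue bars control, darker for higher replicate numbers. Clca1, Gsdmc2, Gsdmc3 and Fcgbp are low in control replicates 1 and 3 as Ang4 and Mptx1 are, while Muc2, Zg16, Tff3 and Spdef are not.

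The genes nearest in profile were found by the Euclidean distance between centred log2(FPKM + 1) values over the 6 libraries. For Mptx1 these were Itln1, Clca1 and Gsdmcl2, at distances of 0.54, 0.60 and 0.63, where the profile of Mptx1 itself had a length of 1.53. For Itln1 they were Gsdmc2, Pgam5 and Plpp2, at 0.47, 0.51 and 0.54, beside a profile length of 1.22. Gsdmc2 had 263, 202 and 348 FPKM with atorvastatin and 165, 249 and 158 FPKM in control. For Reg4 they were Smim8, Gsdmc3 and Mpp6, at 0.24, 0.28 and 0.30, beside a profile length of 0.80. The gasdermin C genes encode proteins of a pore-forming family and are close in sequence, so the value of a single one is uncertain. For Retnlb the nearest were Rell1, Mptx1 and Itln1, at 0.96, 1.02 and 1.18. For Ang4 they were Exosc6, Retnlb and Gsdmc, at 1.42, 1.82 and 2.03, beside a profile length of 3.46.

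On the other side, the genes nearest to Lypd8 were Trim30d, Parp12 and Ace, at distances of 0.10, 0.10 and 0.12. Parp12, which encodes an interferon-inducible ADP-ribosyltransferase, had 15.6, 19.4 and 16.7 FPKM with atorvastatin and 25.0, 19.9 and 21.2 FPKM in control. The genes nearest to Saa1 were Gpr137b, Ly6g and Tef, at 0.35, 0.36 and 0.38. Ly6g had 16.3, 23.9 and 18.2 FPKM with atorvastatin and 39.9, 19.1 and 20.1 FPKM in control, with control replicate 1 highest as for Saa1. For Reg3g they were Snord34, Fbxo32 and Rmnd5a, at 0.19, 0.22 and 0.22. For Reg3b the nearest were Ftl1-ps1, Fkbp1a and Rnf170, at 0.33, 0.36 and 0.36. Fkbp1a had 6.94, 6.94 and 15.4 FPKM with atorvastatin and 7.11, 6.71 and 7.24 FPKM in control, where atorvastatin replicate 3 likewise stood alone.

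Members of larger families share sequence with relatives, and the counting of such reads is not given in the sources used here. Of the 50-base stretches of annotated Saa1 transcripts, 31.5% also occurred in another gene, nearly all in Saa2, which was listed at 0.05 FPKM or less in every library. Lyz1 shared 16.1% with Lyz2, Mptx1 shared 17.9% with Mptx2 and Ang4 shared 4.7%, nearly all with Ang5. Mptx2 was at 0.10 FPKM or less, Saa3 at 0.18 to 0.38 FPKM with atorvastatin and 0.42 to 0.92 FPKM in control, and Reg3a at 0.55 FPKM or less. Reg3d, Retnlg, Retnla and Ang2 were at or near 0. Ang, another angiogenin gene, had 17.8, 11.96 and 11.6 FPKM with atorvastatin and 15.4, 14.5 and 15.8 FPKM in control. Retnlb, Reg3b, Reg3g, Reg4 and Lypd8 shared none. No annotated gene overlapped the span of any of the 10 genes.

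Beyond these genes, 41 other epithelial antimicrobial genes were listed, of which 39 were found by symbol and 14 were tested. In limma's test over all genes 0 of the 14 passed, beside 0.404% of all tested genes. An unadjusted p under 0.05 was found for 2 genes that were higher and 1 that was lower, beside 7.75% and 4.27% of all tested genes. There were 4 positive and 10 negative fold changes, where all tested genes had 6677 and 4967. Their median was -0.05 on the log2 scale, beside 0.02 for all tested genes. Dmbt1, which encodes a scavenger receptor that binds bacteria, had 562 ± 36.6 FPKM with atorvastatin and 589 ± 29.1 FPKM in control. The 3 smallest p-values were those of Defb37, Lyz2 and Ccl28. Defb37, a beta-defensin gene, had 1.56, 1.77 and 2.21 FPKM with atorvastatin and 0.907, 1.17 and 1.21 FPKM in control (limma adjusted p = 0.168). Ccl28, a chemokine with antimicrobial activity, had 33.3, 33.8 and 31.6 FPKM with atorvastatin and 27.7, 29.5 and 29.99 FPKM in control (limma adjusted p = 0.276). Lyz2, the lysozyme of macrophages, had 1.45, 0.838 and 1.17 FPKM with atorvastatin and 2.76, 4.19 and 1.88 FPKM in control (limma adjusted p = 0.194). Groups did not overlap in any of these 3 genes, which were picked for their small p. Of the 14 tested genes, 2 were higher and 1 was lower without overlap, beside 12% and 6.05% of all tested genes.

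Genes of the signals that induce the antimicrobial proteins were listed too, 35 in all, of which 26 were tested. Of the 26 genes 0 passed, beside 0.404% of all tested genes. Among them 7 had positive and 19 negative fold changes, where all tested genes had 6677 and 4967. Their median was -0.05 on the log2 scale, beside 0.02 for all tested genes. The groups did not overlap in 5 of the 26, all lower with atorvastatin, where 6.05% of all tested genes were lower and 12% higher without overlap. Il4ra, a receptor chain for interleukin 4 and interleukin 13, had 5.10, 4.42 and 4.78 FPKM with atorvastatin and 5.65, 6.28 and 5.49 FPKM in control (limma adjusted p = 0.248). Il13ra1, its partner chain, had 24.4, 24.7 and 22.2 FPKM with atorvastatin and 26.2, 28.9 and 30.6 FPKM in control (limma adjusted p = 0.230). Tlr3, a sensor of double-stranded RNA, had 6.54, 7.58 and 6.80 FPKM with atorvastatin and 8.39, 8.96 and 7.42 FPKM in control (limma adjusted p = 0.366). Il22ra1, the epithelial receptor chain for interleukin 22, had 6.62 ± 0.59 FPKM with atorvastatin and 6.80 ± 0.74 FPKM in control. The cytokine genes Il22, Il13 and Il4 were at 0.13 FPKM or less in every library.

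In a list of 16 genes of secretion and the surface barrier, 14 were tested and 0 passed, beside 0.404% of all tested genes. Of the 14 genes 4 had positive and 10 negative fold changes, where all tested genes had 6677 and 4967. Their median was -0.07 on the log2 scale, beside 0.02 for all tested genes. The smallest p-values were those of Muc1, a membrane mucin gene, Nox1, an epithelial oxidase gene, and Alpi, an alkaline phosphatase gene that detoxifies lipopolysaccharide. Muc1 had 1.70 ± 0.04 FPKM with atorvastatin and 2.34 ± 0.20 FPKM in control. Nox1 had 10.9 ± 1.21 FPKM with atorvastatin and 8.58 ± 0.69 FPKM in control. Alpi had 4.55 ± 0.79 FPKM with atorvastatin and 6.96 ± 1.42 FPKM in control (SD, n = 3 each). Their limma adjusted p-values were 0.140, 0.248 and 0.262.

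Markers of other cells were set beside these values. Markers of mast cells (6 genes) summed to 8.70 to 11.1 FPKM with atorvastatin and 13.9 to 25.9 FPKM in control, and those of B and plasma cells (8 genes) to 2.58 to 3.35 FPKM with atorvastatin and 5.13 to 11.5 FPKM in control. Markers of T and NK cells and innate lymphocytes (15 genes) summed to 18.6 to 22.2 FPKM with atorvastatin and 20.3 to 34.8 FPKM in control. Negative fold changes, as Lypd8 and Saa1 had, were found for 3 of 3 tested mast cell markers and 2 of 2 of B and plasma cells. The same held for 7 of 8 of T and NK cells and innate lymphocytes. Over all 11644 tested genes, 4967 had negative and 6677 positive fold changes. Among the mast cell markers Kit was near 0, at -0.003 on the log2 scale. Kit, also listed for deep crypt secretory cells, had 6.20 to 7.90 FPKM with atorvastatin, most of the mast cell sum there, and 6.92 to 7.35 FPKM in control. Macrophage and dendritic cell markers (10 genes) summed to 15.9 to 22.7 FPKM with atorvastatin and 16.9 to 25.8 FPKM in control, most of it Cd14. Of these, Lyz2, Itgax, Csf1r, Adgre1 and C1qc were lower with atorvastatin without overlap, and Mrc1 was higher without overlap. All of those named but Cd14 and Lyz2 were below 1 FPKM in every library. Among all tested genes 6.05% were lower and 12% higher without overlap. Neutrophil markers (9 genes, Elane at 0) summed to 16.4 to 24.1 FPKM with atorvastatin and 19.6 to 40.7 FPKM in control, nearly all of it Ly6g. Surface colonocyte markers (10 genes), of the cells that make LYPD8, summed to 5236 to 6676 FPKM with atorvastatin and 5303 to 6504 FPKM in control. Most of this sum was Car1. Of the 10 surface colonocyte markers, all tested, 3 had positive and 7 negative fold changes. Deep crypt secretory cell markers (7 genes, Reg4 among them) summed to 1158 to 1274 FPKM with atorvastatin and 1004 to 1088 FPKM in control. Most of this sum was Agr2, which like Spink4 is also listed for goblet cells. Positive fold changes were found for 6 of the 7. On the log2 scale Reg4, Agr2 and Spink4 had 0.33, 0.21 and 0.19. Dll1, Dll4, Pla2g2a and Kit had 0.08, 0.06, 0.04 and -0.003. Hoxd13, a position gene of the distal colon, had 13.6, 18.3 and 15.5 FPKM with atorvastatin and 11.5, 9.22 and 7.12 FPKM in control (limma adjusted p = 0.164), while Hoxb13 had 67.6 to 70.9 FPKM with atorvastatin and 58.1 to 70.2 FPKM in control. Of 9 listed genes of distal position 4 were tested, and all 4 had positive fold changes. Of 10 listed genes of proximal position 9 were tested, 3 with positive and 6 with negative fold changes. The part of cell makeup and of the sampled stretch of colon in the antimicrobial genes' values was not tested.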

How the data were processed

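RNA of colon epithelial cells was measured in 6 libraries, 3 per group. The deposited values are FPKM, 1 per gene and library; the authors' unit was read from the values, since no header names it. The mm10 build, Bowtie and FastQC 0.11.2 are named per the submitters' processing notes. The quantifier, annotation and strand setting are not given in the sources used here. A gene table named 99.72% of the identifiers, and coordinates came from GENCODE M21 on GRCm38, which mm10 denotes.

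The antimicrobial genes, the gene lists and the marker lists were chosen with earlier results of these data known. Kept for testing were 11644 genes that reached 1 FPKM in 3 or more libraries, and log2(FPKM + 1) was fitted with limma 3.58.1 in R 4.3.3 (trended, robust empirical Bayes, two-sided, Benjamini-Hochberg over all genes kept). Fold changes on this scale understate changes of low genes. Since the files hold FPKM, no count model was used; the script was tested on simulated data. Named genes were the 10 antimicrobial genes and close relatives, the 3 smallest p-values of each list, and the 3 nearest profiles per tested gene; Dmbt1, Il22ra1, goblet cell genes and markers were named after their values were seen. Alternatives changed the scaling, filter, pseudocount, variance model and libraries, or added the replicate number.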

Additional observations from a re-analysis of the deposited data

How the results depend on the processing

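No antimicrobial gene passed in any of 16 alternatives to the fit, where 7 to 10 of the genes could be fitted. Of 141 alternative values of single genes, 140 kept their direction. Other filters, the other variance model and the replicate block cannot move a fold change, so direction was fixed in advance for these. Reg3b ran from -0.23 without atorvastatin replicate 3 to 0.40 without atorvastatin replicate 1. The lowest limma adjusted p was 0.0844, of Ang4 without control replicate 2. The count of 47 called genes over the whole table was 2 with no filter, 1 with the replicate number as a block, and 7 to 72 with 1 library left out, on the same tested genes; by library it was 13, 61 and 18 without atorvastatin replicates 1, 2 and 3, and 7, 30 and 72 without control replicates 1, 2 and 3. The other alternatives gave 36 to 56; with abundant and mitochondrial genes left out of the scaling and the test (11599 genes, Lypd8 not among them), 15 were higher and 39 lower, where 18 were higher and 29 lower as reported, and the cause of these shifts was not tested. Deviations of same-numbered libraries correlated at -0.14, -0.11 and 0.01, and those of differently numbered libraries at -0.05 to 0.16. With 3 libraries per group these values cannot decide whether the replicate numbers pair the libraries. No antimicrobial gene was called with the replicate block, nor without it. Lyz1 could be fitted with no filter, at -0.51 on the log2 scale (limma adjusted p = 0.666). Scaling moved the median of all genes by less than 0.1. With unknown depth no counting interval was given, and Lyz1 and Itln1 rest on low values.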
